A study of Homo sapiens with 8 samples.

Results

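FOS, FOSB, FOSL1, FOSL2, JUN, JUNB, JUND, EGR1, EGR2 and EGR3 encode the AP-1 transcription factors of the FOS and JUN families and the EGR zinc finger factors. They were read by symbol from a table of 39533 gene rows, and all 10 were present and passed the filter on low counts. These families were chosen with earlier results on the same counts in view, selected on the differences of FOSB and EGR1 from primary tumour cells (FOSB lower in both other groups, EGR1 in circulating cells). Values against primary tumour cells are therefore given as a description for these 10 genes, with no p-value.

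The study sequenced 8 libraries of HCT116, an established human colorectal cancer cell line, from a model of tumour self-seeding, in which circulating cells return to the tumour they left. Its title speaks of liver cancer, while the labels name this colorectal line. Self-seeded cells (TSC, n = 3) and primary cells (PC, n = 3) were both taken from the primary tumour, and circulating cells (CTC, n = 2) from blood. All cells came from 1 line, no treatment is named for any group, and neither the host animal nor how the groups were separated is stated in the labels used here. Because CTC came from blood and the other groups from a tumour, the source and the group cannot be told apart for CTC.

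AP-1 is a dimer of a JUN family protein with a FOS family protein, or of JUN proteins with each other, which binds DNA through a basic region beside a leucine zipper. EGR proteins bind GC-rich sites through zinc fingers. FOS, FOSB, JUNB and the EGR genes are immediate early genes: growth factors, stress or mechanical force acting through ERK and other kinases switch them on within minutes, without new protein synthesis, and their mRNAs are short-lived. FOSL1, which is known to be maintained by ERK signalling in epithelial tumours, and JUND, which is broadly expressed, are known for steadier levels.

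Total counts were 10864761 to 19264595 in PC, 4578869 to 14717833 in TSC, and 957607 and 10524069 in CTC replicates 1 and 2. With 3 counts as the floor, a count of 0 allowed up to 2.99 CPM (a gene's count relative to the library total, scaled by TMM, a between-library normalisation) in CTC replicate 1 and 0.156 to 0.668 CPM in the other libraries. Floors and count intervals cover counting error only. Of 8 epithelial markers, 7 had counts, KRT8 and EPCAM among them, and their summed level was 5948 to 8001 CPM in PC, 7975 to 9240 CPM in TSC, and 5147 and 7618 CPM in CTC. Summed leukocyte markers (16 genes, 3 at 0 in all libraries) were at 13.7 to 22.6 CPM in PC, 26.3 to 51.3 CPM in TSC, and 356 and 143 CPM in CTC replicates 1 and 2. Most of the PC and TSC sums was CD68 (10.8 to 20.7 CPM in PC and 21.3 to 49.2 CPM in TSC), which was at 19.9 and 14.2 CPM in CTC. Summed erythroid markers (6 genes, 2 at 0 in all libraries) were at most 1.59 CPM in PC and TSC but 194 and 252 CPM in CTC. Leukocytes also express AP-1 and EGR genes, and the part of blood cell RNA in the CTC values was not tested. Nothing in the labels says that replicates came from separate animals or cultures, so errors and p-values cover the variation among these libraries alone, and part or all of it may be technical.

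The promoters of 4 members that lay lower outside the primary cells are shown with the searched motifs that matched in them. Each window runs from 250 bases before to 50 bases after the RefSeq gene start (GRCh38.p14, the same build as hg38), on the plus strand, 5′ to 3′. Elements farther than 250 bases before the start fall outside these windows. Capitals mark TATAAA in FOS, FOSB and JUNB. In EGR1 they mark GCGNGGGCG, the site that EGR proteins themselves bind, followed by a pair of CArG boxes, the element bound by serum response factor (SRF).
FOS, chr14:75278578-75278877: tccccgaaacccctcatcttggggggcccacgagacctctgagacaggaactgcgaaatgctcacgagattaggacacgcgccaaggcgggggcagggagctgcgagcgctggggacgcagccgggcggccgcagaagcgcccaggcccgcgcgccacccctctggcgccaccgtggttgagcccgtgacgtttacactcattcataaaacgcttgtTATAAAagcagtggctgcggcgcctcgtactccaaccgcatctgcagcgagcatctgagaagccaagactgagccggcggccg
FOSB, chr19:45467746-45468045: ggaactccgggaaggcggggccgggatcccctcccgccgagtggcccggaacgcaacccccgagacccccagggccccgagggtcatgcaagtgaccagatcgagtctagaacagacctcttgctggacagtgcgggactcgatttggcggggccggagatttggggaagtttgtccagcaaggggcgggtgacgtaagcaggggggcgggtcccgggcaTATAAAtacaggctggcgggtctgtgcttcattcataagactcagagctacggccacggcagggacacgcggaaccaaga
JUNB, chr19:12791236-12791535: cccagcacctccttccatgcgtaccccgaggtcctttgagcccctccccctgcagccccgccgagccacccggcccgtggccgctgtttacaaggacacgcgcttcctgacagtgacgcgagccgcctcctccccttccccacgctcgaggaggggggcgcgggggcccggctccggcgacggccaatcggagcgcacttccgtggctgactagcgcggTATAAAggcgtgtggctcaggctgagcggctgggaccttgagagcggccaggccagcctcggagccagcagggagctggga
EGR1, chr5:138465229-138465528: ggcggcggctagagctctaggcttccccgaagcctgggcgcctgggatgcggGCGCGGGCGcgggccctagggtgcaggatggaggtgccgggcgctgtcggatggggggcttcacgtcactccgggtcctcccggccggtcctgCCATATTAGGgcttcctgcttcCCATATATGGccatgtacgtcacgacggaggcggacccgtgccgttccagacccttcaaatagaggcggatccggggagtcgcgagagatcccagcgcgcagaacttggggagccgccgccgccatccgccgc

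TATAAA ended 28, 25 and 26 bases before the start of FOS, FOSB and JUNB. It occurred on either strand in 11.5% of 35116 promoters of the same length. The CArG boxes of EGR1 lay at −105 to −96 and −83 to −74, and 1 of the 3 annotated EGR2 promoters held a CArG box at −71 to −62, whereas 1.29% of all promoters held one. GCGNGGGCG (9.43% of all promoters) was found in EGR1 at −198 to −190 and in another EGR2 promoter at 9 to 17. The CRE TGACGTCA (1.85%) was found only in JUND, and TGANTCA, the element bound by AP-1 itself (7.71%), only in FOSL2, among the promoters of the 8 members that the table holds for the motif search. No motif matched in the JUN window. These motifs were searched on both strands and do not overlap each other here, and a match is a run of letters and not a known binding site. Promoters of FOSL1 and EGR3 are not shown.

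Within the FOS family, FOS and FOSB lay far lower outside the primary cells, whereas FOSL1 differed little. FOS, the family's founding member, was at 447, 697 and 640 CPM in PC replicates 1 to 3, at 145, 315 and 309 CPM in TSC, and at 261 and 44.7 CPM in CTC. Every TSC and CTC library was below every PC library, and the CTC values overlapped the TSC values. The log2 fold change of FOS was −1.21 ± 0.44 (SE) in TSC and −2.05 ± 0.54 in CTC against PC. In bulk RNA of this kind, fewer cells with a transcript and less transcript per cell cannot be told apart.

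FOSB, a close relative of FOS that is also spliced into a truncated form, separated the groups without overlap. It was at 281, 509 and 449 CPM in PC, at 170, 179 and 193 CPM in TSC, and at 83.8 and 56.4 CPM in CTC. PC held the highest values, TSC the middle ones and CTC the lowest, and the TSC libraries were close to each other (181 ± 12 CPM, SD). FOSB was 2.29-fold lower in TSC than in PC (log2 −1.19 ± 0.22) and 6.08-fold lower in CTC (−2.61 ± 0.27).

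FOSL1, which encodes FRA-1, was at 183, 230 and 225 CPM in PC, at 149, 193 and 161 CPM in TSC, and at 138 and 178 CPM in CTC. The TSC range overlapped that of PC and that of CTC. The fold changes against PC were small, at −0.34 ± 0.17 in TSC and −0.42 ± 0.20 in CTC. FOSL2, which encodes FRA-2, lay between these patterns, at 161, 182 and 228 CPM in PC, at 70.4, 136 and 105 CPM in TSC, and at 122 and 67.2 CPM in CTC. Its PC libraries were all above the others, with −0.86 ± 0.25 in TSC and −1.06 ± 0.30 in CTC.

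In the JUN family JUNB lay lower outside the primary cells, and JUN and JUND lay closer to them. JUNB, which can oppose JUN at shared sites, was at 259, 294 and 293 CPM in PC, at 111, 189 and 155 CPM in TSC, and at 122 and 81.3 CPM in CTC. No PC library overlapped the other groups, while TSC and CTC overlapped. The log2 fold change of JUNB against PC was −0.89 ± 0.21 in TSC and −1.51 ± 0.25 in CTC.

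JUN, the main partner of FOS proteins, was at 372, 508 and 526 CPM in PC, at 282, 429 and 406 CPM in TSC, and at 437 and 320 CPM in CTC. The 3 groups overlapped, and JUN differed from PC by −0.33 ± 0.20 in TSC and −0.32 ± 0.23 in CTC. JUND was the single member with a higher mean in TSC than in PC, at 380, 763 and 466 CPM in TSC against 411, 463 and 531 CPM in PC. That mean rested on TSC replicate 2, and the difference was 0.20 ± 0.23, or −0.16 without that library. In CTC, JUND was at 272 and 387 CPM, both below the lowest PC library (−0.50 ± 0.26).

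The EGR family showed the widest differences. EGR1, the most abundant member per length in PC, was at 1138, 1567 and 1705 CPM in PC, at 394, 704 and 644 CPM in TSC, and at 369 and 61.3 CPM in CTC. The groups did not overlap, and the highest CTC library was just under the lowest TSC library. EGR1 differed from PC by −1.34 ± 0.42 in TSC and by −2.84 ± 0.54 in CTC, which is 7.15-fold.

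EGR2, known for its role in myelinating glia and in lymphocytes, was at 43.5, 73.2 and 77.7 CPM in PC, at 5.13, 11.8 and 14 CPM in TSC, and at 22.9 and 0.0954 CPM in CTC. All TSC libraries were well below PC, and the CTC libraries stood on either side of TSC. CTC replicate 2 held 1 count of EGR2 among 10524069, so its value has a 95% Poisson interval of 0.00241 to 0.531 CPM. The fold change was −2.60 ± 0.67 in TSC and −3.86 ± 1.08 in CTC, the widest SE of the 10 genes in both comparisons. EGR3, induced by growth factor and antigen receptor signalling, was at 28.5, 45.7 and 39.5 CPM in PC, at 13.8, 16.1 and 26.0 CPM in TSC, and at 12 and 3.15 CPM in CTC. Its 3 groups did not overlap, with −1.01 ± 0.33 in TSC and −2.91 ± 0.51 in CTC. EGR3 shares 164 exon bases with an antisense transcript in GENCODE 29, and since the strand setting of the counting is not given, reads of the pair cannot be told apart. The other 9 members share no exon bases with another gene in that annotation.

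**Figure D1:**
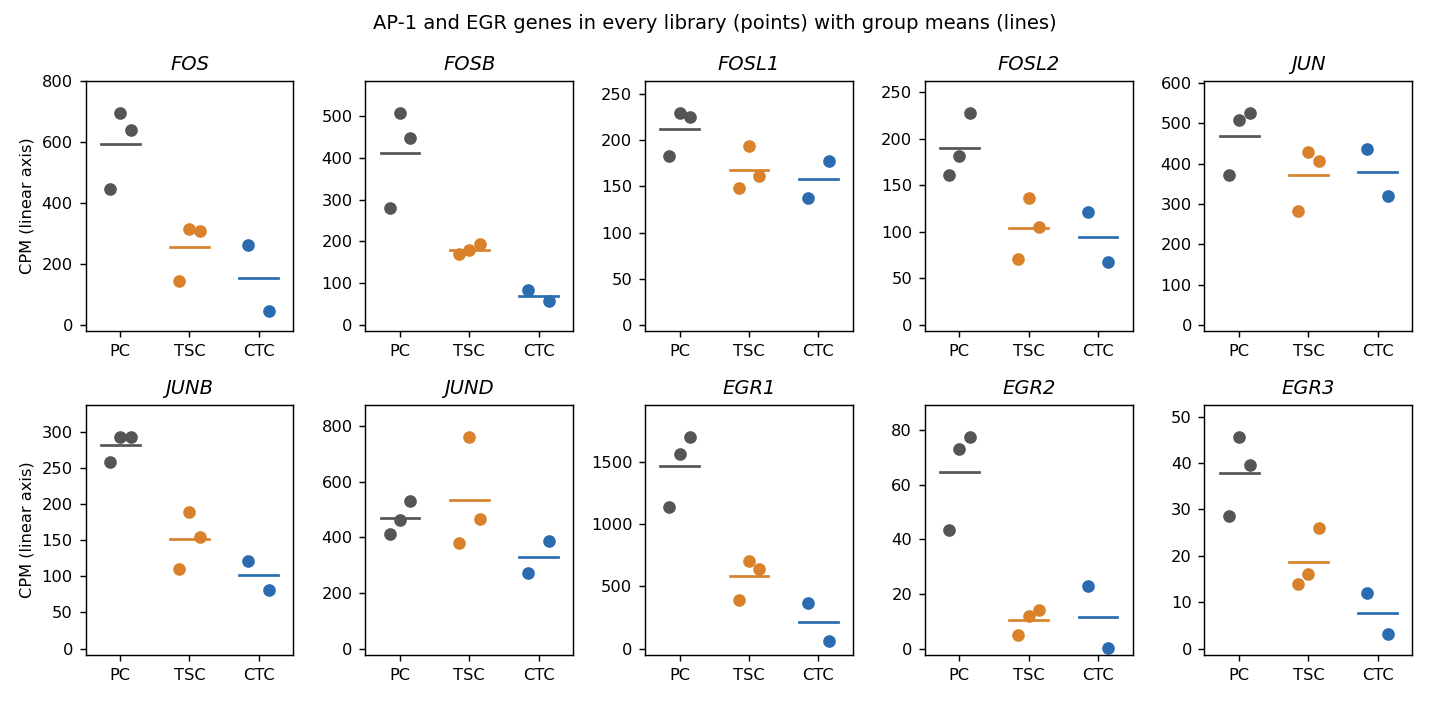
CPM on a linear axis for each of the 10 genes, with 1 point per library (PC n = 3, TSC n = 3, CTC n = 2) and a line at each group mean. FOS, FOSB, FOSL2, JUNB and the EGR genes have every TSC and CTC point below every PC point, while JUN overlaps in all groups.

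Across the 10 genes, 7 had their means in the order PC, TSC, CTC, 2 (JUN and EGR2) in the order PC, CTC, TSC, and JUND in the order TSC, PC, CTC. Every TSC library was below every PC library for 7 members, against 9.9% of the 14255 genes tested. Every CTC library was below every PC library for 9 members, the exception being JUN, against 24.7% of tested genes. With p-values from edgeR (quasi-likelihood F test) adjusted by Benjamini-Hochberg over all tested genes and a threshold of 0.05, 1 of 10 members (FOSB) was called lower in TSC than in PC, where 0.281% of tested genes were called lower and 0.224% higher. For CTC against PC, 5 of 10 (FOS, FOSB, JUNB, EGR1 and EGR3) were called lower, where 2.52% of tested genes were called lower and 1.4% higher. No member was called higher in either. The median log2 fold change of the members was −0.95 in TSC and −1.78 in CTC, and that of all tested genes was 0.006 and −0.04. The comparisons share the PC libraries and the contrasts took part in choosing the families, so nothing is read from these counts. FOSB was not called in TSC without PC replicate 2, PC replicate 3 or TSC replicate 3, with fold changes of −1.03, −1.14 and −1.26. In CTC against PC, the FOS call was lost in 9 of 16 alternative settings of the fit. Among these were DESeq2, its size factors, a stricter filter on low counts and the replicate number as a block. The calls of JUNB and EGR3 were lost in 1 setting each, and those of EGR1 and FOSB in 0.

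**Figure D2:**
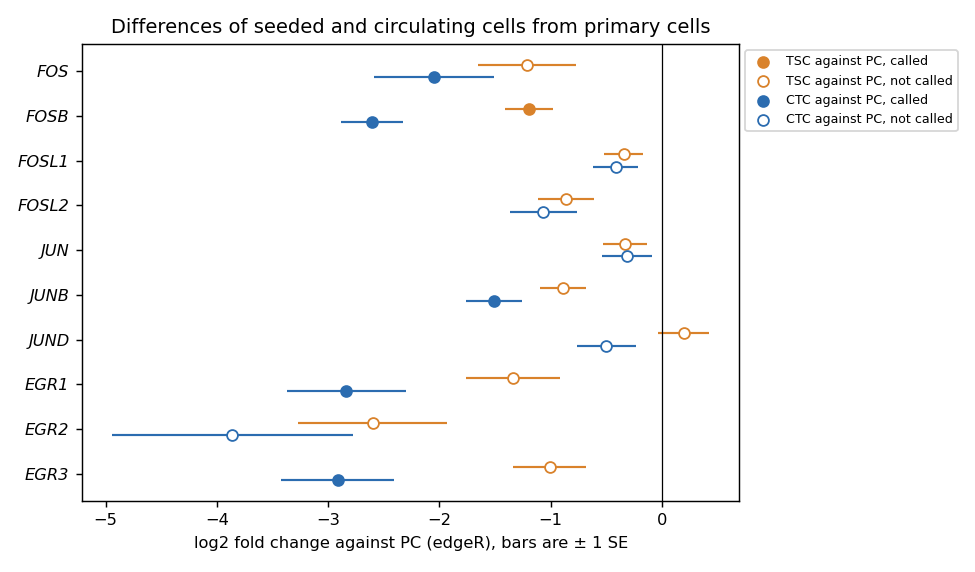
Log2 fold change against PC for TSC (orange) and CTC (blue) with bars of ± 1 SE from edgeR's fit, where filled points passed the adjusted threshold over all tested genes. FOSL1 and JUN sit near 0 in both groups, and the EGR genes and FOSB lie farthest left in CTC.

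CTC was represented by libraries that differed from each other as much as from PC for some genes. EGR1 was 6.02-fold higher in CTC replicate 1 than in CTC replicate 2 (95% counting interval 5.28 to 6.85), FOS 5.84-fold (5.0 to 6.81) and EGR3 3.80-fold (1.79 to 7.56). For EGR2, with 23 and 1 counts, the ratio was 241 with an interval of 39.1 to 9909. FOSB (1.49-fold, 1.17 to 1.87), JUNB (1.5-fold, 1.23 to 1.81) and JUN (1.37-fold, 1.23 to 1.51) differed less, and FOSL1 (0.773, 0.646 to 0.919) and JUND (0.704, 0.620 to 0.796) were higher in CTC replicate 2. The leukocyte genes PTPRC, which encodes CD45, and LYZ, which encodes lysozyme, were 4.18-fold (2.69 to 6.38) and 4.06-fold (3.17 to 5.16) higher in CTC replicate 1 as well, and their part in the difference was not tested. The leukocyte genes LCP1 (83.8 and 21.1 CPM) and CSF1R (55.9 and 16.3 CPM) were also higher in CTC replicate 1 than in CTC replicate 2. SPI1 (33.9 and 17.5 CPM) and CD68 (19.9 and 14.2 CPM) differed less, and ITGAM (33.9 and 41.2 CPM) differed the other way. The β-globin gene HBB was not higher in CTC replicate 1 (0.784, 0.665 to 0.920).

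Leaving out 1 CTC library therefore moved the circulating cell values. Without CTC replicate 2, EGR1 and FOSB were the members called in CTC against PC, among 35 genes called in all, with log2 fold changes of −2.00 and −2.31, and FOS, JUNB, EGR2 and EGR3 were at −1.19, −1.22, −1.51 and −1.67. Without CTC replicate 1, 7 members were called, among 816 genes called in all, with EGR1 at −4.59, FOS at −3.74, EGR3 at −3.59 and EGR2 at −9.26, the last resting on 1 count. FOSB (−2.88 without CTC replicate 1) and JUNB (−1.80) moved less than FOS and the EGR genes.

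Within groups the members mostly had the same lowest library. PC replicate 1 was the lowest PC library for 10 of 10 members, TSC replicate 1 was the lowest TSC library for 10 of 10, and CTC replicate 2 was the lower CTC library for 8 of 10, the exceptions being FOSL1 and JUND. TSC replicate 1 was also the shallowest TSC library, while PC replicate 1 was not the shallowest PC library and CTC replicate 2 was the deeper of its pair. The share of all tested genes with this order was not counted, so nothing particular to the members is read from it. SRF, ZFP36 and IER2, outside the members, were also lowest in PC replicate 1 and TSC replicate 1. ATF3 and RHOB were not lowest in TSC replicate 1. The 10 genes are not independent of each other, and whether depth or handling bears on this order was not tested.

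Self-seeded and circulating cells were also compared with each other, a contrast that did not choose the families but shares its libraries with those that did. FOSB was 2.66-fold higher in TSC than in CTC (log2 1.41 ± 0.26, n = 3 and 2, edgeR adjusted p = 0.0225), higher in 3 of 3 TSC libraries than in both CTC libraries. It was the 1 member called, where 0.372% of tested genes were called higher and 0.526% lower. The call was lost without TSC replicate 3 (adjusted p = 0.119), without CTC replicate 2 (adjusted p = 0.194) and with the replicate number as a block (adjusted p = 0.0574). EGR3 (1.91 ± 0.51, adjusted p = 0.0952), EGR1 (1.5 ± 0.51, adjusted p = 0.164), JUND (0.69 ± 0.26, adjusted p = 0.209) and JUNB (0.62 ± 0.24, adjusted p = 0.226) did not pass. FOS (0.84 ± 0.52), EGR2 (1.26 ± 1.13), FOSL2 (0.20 ± 0.30), FOSL1 (0.07 ± 0.20) and JUN (−0.01 ± 0.22) had adjusted p from 0.439 to 0.987. The fitted sign of EGR2 is opposite to that of its mean CPM (10.3 in TSC and 11.5 in CTC), and its fold change was 6.66 without CTC replicate 1, −1.09 without CTC replicate 2 and −0.16 by DESeq2, so no direction is given for it. All TSC libraries were above both CTC libraries for 3 members (FOSB, EGR1 and EGR3), against 15.4% of tested genes.

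Levels of different genes were compared per kilobase of exon, since longer transcripts collect more reads. In PC the order was EGR1 (468 ± 94.4 CPM per kb, SD), JUND (252 ± 32.3), FOS (202 ± 44.4), JUNB (155 ± 11), JUN (132 ± 23.8), FOSL1 (116 ± 13.9), FOSB (74.3 ± 21.2), FOSL2 (28 ± 5.05), EGR2 (20.7 ± 5.93) and EGR3 (8.52 ± 1.96). Neighbours in that order from JUND to FOSL1, and FOSL2 and EGR2, differed by less than the sum of their SDs. In TSC, JUND led (288 ± 108 CPM per kb), followed by EGR1 (185 ± 52.3), JUN (105 ± 22.4) and FOSL1 (91.1 ± 12.6). In CTC, JUND led (177 ± 43.5 CPM per kb), followed by JUN (107 ± 23.4) and FOSL1 (85.8 ± 15.5), and EGR1 was in place 4 (68.6 ± 69.3). EGR1 was above JUND in each of the 3 PC libraries, and JUND was above EGR1 in each TSC and CTC library, although the means in TSC differed by less than the sum of their SDs.

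The makeup of each family was given as a share of its summed CPM per kb. Shares within a family depend on each other, so a gene gains share where its relatives are lower. FOS made up 48.0% ± 1.34 (SD) of the FOS family in PC, 37.5% ± 7.63 in TSC, and 45.2% and 11.5% in CTC replicates 1 and 2. FOSL1 made up 26.0% to 30.5% in PC, 36.0% to 47.2% in TSC, and 38.0% and 73.3% in CTC, so that no TSC or CTC library overlapped PC. Its own mean level was not higher, at 116 CPM per kb in PC, 91.1 in TSC and 85.8 in CTC. FOSB, whose level enters this share, took part in choosing the families. FOSB made up 17.5% ± 1.80 in PC, 14.8% ± 2.87 in TSC, which overlapped PC, and 7.67% and 7.69% in CTC. As a share of raw counts the CTC value of FOSB was 15.1% ± 1.70. FOSL2 held 6.74% ± 1.02 in PC and 6.68% ± 0.81 in TSC.

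In the JUN family the share of JUNB was 28.9% ± 1.68 in PC, 17.6% ± 1.28 in TSC and 16.5% ± 4.84 in CTC. JUND took 44.9% to 47.9% of the family in PC and 55.6% to 64.5% in TSC without overlap, and 43.4% and 60.6% in CTC. EGR1 made up 94.2% ± 0.51 of the EGR family in PC and 96.1% ± 0.83 in TSC. The share of EGR2 was 3.62% to 4.38% in PC and 1.25% to 2.07% in TSC, again without overlap, and 5.73% and 0.150% in CTC replicates 1 and 2, on either side of PC. These designs of 3 against 3 libraries and 2 against 3 cannot reach an exact permutation p below 0.10, so no test of the shares was made.

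**Figure D3:**
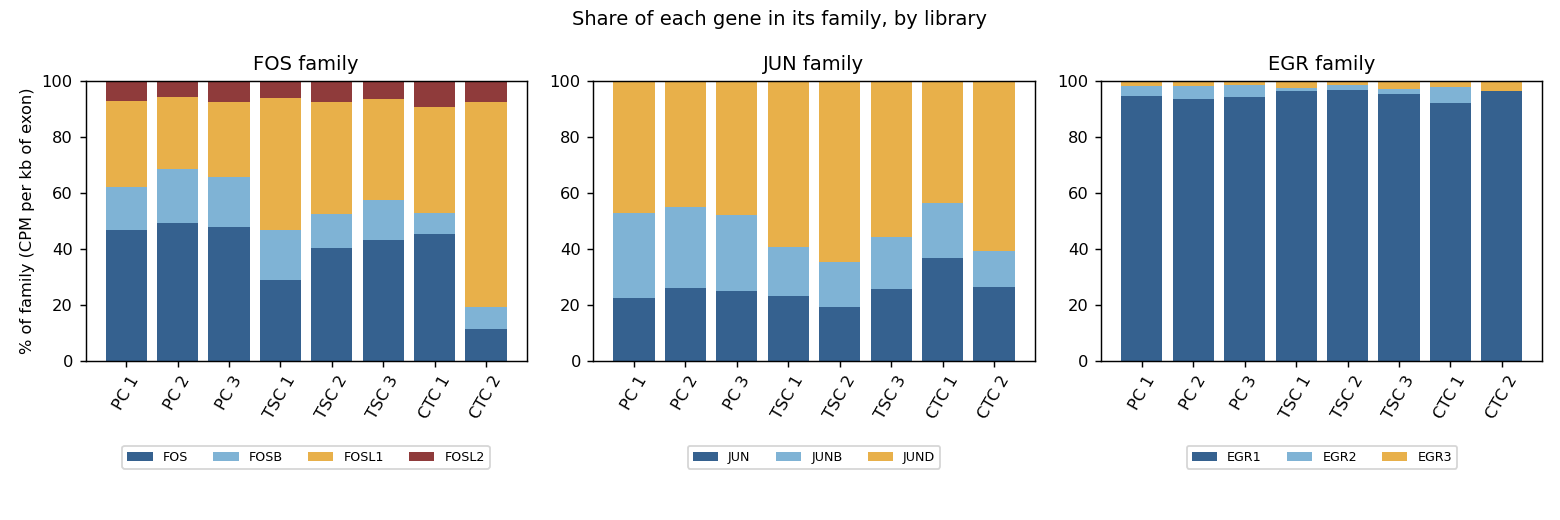
Stacked bars from 0 to 100 give the share of each gene in its family's summed CPM per kb of exon, 1 bar per library. FOSL1 takes a larger share of the FOS family in every TSC and CTC library than in any PC library, most of all in CTC replicate 2 (73.3%), and JUNB a smaller share of the JUN family. Shares within a family depend on each other, and the mean level of FOSL1 itself was not higher in TSC or CTC.

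This list and the lists that follow were chosen with earlier results of these data known. Their p-values are therefore a description and not independent tests. Of 13 relatives of the members and partners that bind DNA with them, 12 were tested. In TSC against PC 0 were called by edgeR (1 at an unadjusted p under 0.05). In CTC against PC 2 were called higher and 0 lower (6 at an unadjusted p under 0.05). Of all tested genes 1.4% were called higher there. MAF, a bZIP transcription factor gene and 1 of the 2 called higher, was at 0 to 0.814 CPM in PC and TSC and at 6.98 and 9.73 CPM in CTC. It passed the count filter only through CTC, where leukocyte markers were also high, so its test is not used. ATF3, a stress-induced partner of JUN proteins, was at −0.09 ± 0.21 in TSC (adjusted p = 0.927) and −0.71 ± 0.25 in CTC (adjusted p = 0.111). EGR4, the remaining EGR gene, was at 2.90 to 4.99 CPM in all libraries, with −0.16 ± 0.45 in TSC (adjusted p = 0.933) and 0.16 ± 0.55 in CTC (adjusted p = 0.890).

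Of 20 kinases and transcription factors that act upstream of the members, 18 were tested. In TSC against PC 0 were called by edgeR (3 at an unadjusted p under 0.05). In CTC against PC, where 1.4% of tested genes were called higher, 1 was called higher. It was the ERK-activated kinase gene RPS6KA3 (0.84 ± 0.19, adjusted p = 0.0256). That call was lost without any 1 of the PC or CTC libraries and with the replicate block (adjusted p up to 0.195). SRF differed by −0.24 ± 0.19 in TSC (adjusted p = 0.708) and −0.41 ± 0.22 in CTC (adjusted p = 0.278). MAPK3, which encodes an ERK kinase, did not pass (0.02 ± 0.21 in TSC, adjusted p = 0.990, and −0.34 ± 0.26 in CTC, adjusted p = 0.455). EGFR, the receptor gene of epidermal growth factor, was below every PC library in all TSC and CTC libraries without passing (−0.51 ± 0.20, adjusted p = 0.407, and −0.77 ± 0.24, adjusted p = 0.0761).

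Of 6 corepressor and protein turnover genes, 0 were called in either comparison with PC by edgeR (2 in TSC and 3 in CTC at an unadjusted p under 0.05). NAB2, a corepressor of EGR proteins that EGR1 is known to induce, was at −0.50 ± 0.20 in TSC (adjusted p = 0.408) and −0.90 ± 0.24 in CTC (adjusted p = 0.0504). Among the mRNA decay factors, which bind AU-rich elements such as that of FOS, ZFP36L1 fell in CTC from 1146 ± 176 to 561 ± 21.1 CPM (log2 −1.03 ± 0.26, adjusted p = 0.0387). This call was lost without any 1 PC library, without TSC replicate 3 or without either CTC library, and with the replicate block (adjusted p up to 0.279). ZFP36 was at −0.25 ± 0.28 in TSC (adjusted p = 0.812) and −0.92 ± 0.34 in CTC (adjusted p = 0.118).

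Of 26 other immediate early genes 25 were tested, and IER3 was at or near 0 in all libraries. As for the other lists, earlier results were known when these genes were chosen, so their p-values are a description. In TSC against PC, 1 fell and 1 rose, where 0.281% of tested genes were called lower and 0.224% higher. CCN1, which encodes a matrix-associated signalling protein, fell from 115 ± 24.3 to 37.1 ± 12.2 CPM (log2 −1.62 ± 0.27, adjusted p = 0.0139). RHOB, a small GTPase gene, rose from 140 ± 2.24 to 273 ± 32.7 CPM (0.96 ± 0.18, adjusted p = 0.0236). Both calls were lost without PC replicate 2, PC replicate 3 or TSC replicate 3, and that of RHOB also without PC replicate 1 (adjusted p up to 0.0975 for CCN1 and 0.170 for RHOB). The median over the 25 genes was −0.38, with 19 negative. For all tested genes the median was 0.006, with 49.1% negative.

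In CTC against PC, 8 of the 25 fell and 2 rose, with a median of −0.61 and 16 negative. Of all tested genes 2.52% were called lower and 1.4% higher, and 52.6% were negative, with a median of −0.04. CSRNP1, a nuclear protein gene, fell from 78.0 ± 10.8 to 27.3 ± 12.2 CPM (log2 −1.67 ± 0.28, adjusted p = 0.00647). CCN1 was at −1.71 ± 0.34 (adjusted p = 0.0153) and IER2, a short-lived nuclear protein gene, at −1.16 ± 0.24 (adjusted p = 0.0179). The orphan nuclear receptor gene NR4A1 was at 198 to 290 CPM in PC, at 83.1 to 284 CPM in TSC and at 66.8 and 58.3 CPM in CTC (−1.95 ± 0.40 in CTC, adjusted p = 0.0189), and its relative NR4A3 was at −2.57 ± 0.54 (adjusted p = 0.0215). RHOB rose (1.11 ± 0.19, adjusted p = 0.00826). NR4A2, ARC and IER5L were the other genes that fell, and SGK1 the other that rose. SGK1 was at 29.9 and 7.73 CPM in CTC replicates 1 and 2, and the part of blood cells in its rise was not tested. Without CTC replicate 2, 1 of these 10 calls was left (SGK1), without CTC replicate 1, 7 were left, and without PC replicates 1, 2 and 3, 5, 2 and 4. Without TSC replicate 3 and with the replicate block, 6 were left.

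**Figure D4:**
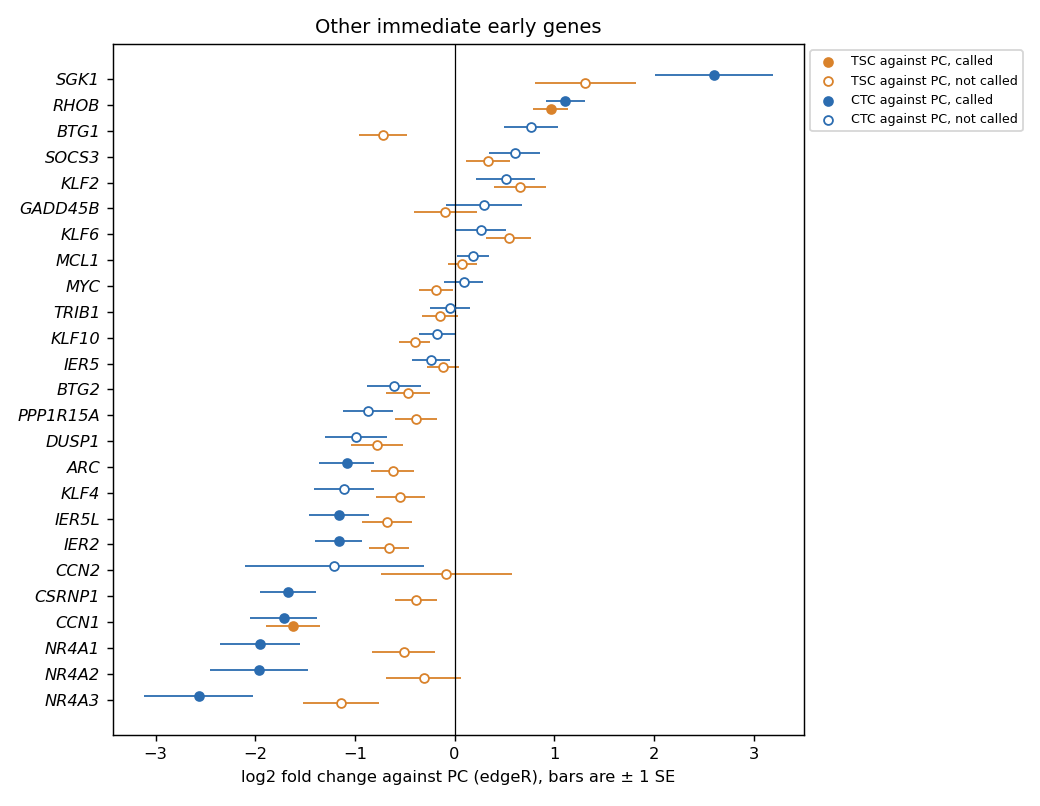
Log2 fold change against PC with bars of ± 1 SE for the 25 tested immediate early genes outside the FOS, JUN and EGR families, TSC in orange and CTC in blue, filled where the adjusted threshold was passed. CCN1 and RHOB are filled in both groups, and the 3 NR4A genes lie farthest left in CTC.

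Of 27 genes known as AP-1 or EGR targets 22 were tested, and MMP1, MMP3 and IL6, classical AP-1 targets, were at or near 0. Here too earlier results were known when the list was chosen, so its p-values are a description. In TSC against PC, 1 fell and 0 rose, and the median was 0.29 with 13 positive. Of all tested genes 0.281% were called lower and 0.224% higher, and 49.1% were negative, with a median of 0.006. The gene that fell was the matrix protease gene MMP7, from 7.75 ± 1.72 to 0.684 ± 0.566 CPM (log2 −3.75 ± 0.71, adjusted p = 0.0294). It was not called without any 1 PC library or without TSC replicate 2 or 3 (adjusted p up to 0.178), and in CTC it was at 16.0 and 2.67 CPM. A stricter filter on low counts left MMP7 out. Its TSC values were low, at 1.34, 0.353 and 0.362 CPM. In CTC against PC, 1 fell and 2 rose, where 2.52% of tested genes were called lower and 1.4% higher. PLAU, the urokinase gene, fell from 34.4 ± 3.90 to 8.09 ± 2.98 CPM (−1.92 ± 0.30, adjusted p = 0.00404). VIM, the vimentin gene that leukocytes also express, rose from 3.42 ± 1.45 to 163 ± 83.1 CPM (5.51 ± 0.41, adjusted p = 8.15e-06), and THBS1, the thrombospondin gene known in platelets and monocytes, from 23.7 ± 5.67 to 94.9 ± 29.9 CPM (2.03 ± 0.30, adjusted p = 0.00276). The calls of PLAU and THBS1 were lost without CTC replicate 2 (adjusted p = 0.0627 and 0.139). Platelet markers were nearly absent in CTC (0.997 and 1.53 CPM summed over 4 genes, 3 of them at 0 in all libraries), and the part of blood cells in these rises was not tested.

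The genes whose pattern was most like that of EGR1 over the 8 libraries, by Pearson correlation of log2 CPM among 9230 protein-coding genes, were RNF43 (r = 0.996), RCOR2 (0.996), DGLUCY (0.994), OLFML2A (0.988) and CMTM7 (0.987). RNF43, a membrane ubiquitin ligase gene of the Wnt pathway, was at 39.9, 51.7 and 58.1 CPM in PC, at 20.3, 26.0 and 25.7 CPM in TSC, and at 17.0 and 5.05 CPM in CTC, so that the 8 libraries stood in the same order as for EGR1. For FOSB the closest were RAP1GAP (0.963), ALDOC (0.961), RASSF3 (0.960), KLK6 (0.957) and TNIK (0.954). These correlations describe 8 libraries in 3 groups that share depth and source, and the highest of 9230 are high by selection.

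In RefSeq on GRCh38.p14 the members are spread over the genome. FOS lies on chromosome 14 (75278828 to 75282230), FOSB on chromosome 19 (45467996 to 45475179), FOSL1 on chromosome 11 (65892049 to 65900545) and FOSL2 on chromosome 2 (28392858 to 28417317). JUN lies on chromosome 1 (58780791 to 58784047), JUNB and JUND on chromosome 19 (12791486 to 12793315 and 18279694 to 18281622), EGR1 on chromosome 5 (138465479 to 138469303) and EGR2 on chromosome 10 (62811996 to 62819167). JUN, JUNB and JUND each consist of 1 exon.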

How the data were processed

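RNA counts of 8 libraries were analysed, grouped by their titles (TSC 3, PC 3, CTC 2). The deposited table holds whole-number counts per gene, not normalized. Per the submitters' processing notes, STAR 2.5.3a, featureCounts 1.5.3 and hg38 were used. Per the labels' protocols, total RNA was depleted of ribosomal RNA. The annotation and strand setting are not stated in the labels used here.

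The members and gene lists were chosen with earlier results of these data known. 1 fit of all 8 libraries used edgeR 4.0.16 (R 4.3.3) on the counts, after filterByExpr on the groups and TMM scaling, with glmQLFit and glmQLFTest, with Benjamini-Hochberg adjustment over 14255 genes and a threshold of 0.05. The SE is the log2 fold change divided by the square root of F. CPM used the tested total and TMM factors, and CPM per kb the union of exons of GENCODE 29. All 10 members are named. From the other lists, called genes (up to 6 per list and comparison by adjusted p) and EGR4, ATF3, SRF, NAB2, ZFP36, MAPK3 and EGFR are named, except for items not reported here. IER3, NR4A2, ARC, IER5L, SGK1, MMP1, MMP3 and IL6 were named after their values were seen. Sequences and motifs are from RefSeq promoters. Alternatives were DESeq2 1.42.0, its size factors, no filter and a stricter one (mean of 50 counts), limma-voom (limma 3.58.1), both groups alone, a replicate block, mitochondrial and small noncoding genes removed, and each library left out. The scripts were tested on simulated counts. There 51%, 26% and 44% of 2-fold changes were called in TSC against PC, CTC against PC and TSC against CTC. For 4-fold changes these were 94%, 93% and 92%. False calls were 20 of 165, 11 of 130 and 7 of 143 in the same order. In TSC against PC and in CTC against PC the false calls were a larger share than the threshold of 0.05. The changed genes were drawn above a minimum mean level, so recovery at lower levels is not covered.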

Additional observations from a re-analysis of the deposited data

Results flagged for a closer look

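Differences from PC that were unequal in TSC and CTC, by the TSC against CTC term of edgeR's fit (adjusted over all tested genes), were found for 6 named genes. FOSB was 1.41 higher in TSC on the log2 scale (adjusted p = 0.0225), PLAU 1.49 higher (adjusted p = 0.0322) and CSRNP1 1.29 higher (adjusted p = 0.0434). The FOSB value is not independent of the choice of the families, which used its differences from PC in these same TSC and CTC libraries. The lists that hold the other genes were also chosen with earlier results of these data known. The antiproliferative gene BTG1 was at −1.48 in TSC relative to CTC (adjusted p = 0.0224), THBS1 at −2.85 (adjusted p = 0.000199) and VIM at −4.59 (adjusted p = 4.78e-05). BTG1 was at 132 and 72.6 CPM in CTC replicates 1 and 2, and its call was lost without CTC replicate 1. The part of blood cell RNA in the CTC levels of BTG1, THBS1 and VIM was not tested. VIM and THBS1 kept their call in all 16 alternatives run. The calls of FOSB, PLAU, CSRNP1 and BTG1 were lost in 3, 8, 10 and 2 of them, the fit without TSC replicate 3 being among them for all 4.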

How the results depend on the processing

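Across 16 alternatives no called fold change of a member turned its direction, and no member was called higher than in PC. Members called in TSC against PC numbered 1 in the reported fit, 3 by DESeq2, 7 with no filter, 6 by limma-voom, 3 with both groups alone, and 0 to 3 with 1 library left out. In CTC against PC the 5 calls ranged from 2 to 7 with 1 library left out. In TSC against CTC the 1 call became 2 by DESeq2, 5 with no filter, 5 by limma-voom, 0 with the replicate block, and 0 to 5 with 1 library left out. The causes were not tested. Calls over all genes went from 72 to between 10 and 553, from 559 to between 35 and 1660, and from 128 to between 36 and 728 in the same order. Same-numbered libraries deviated together with correlations of −0.168 to 0.102 across genes, so the numbers were not taken as pairs. With the replicate block, 1 and 4 members were called in TSC and in CTC against PC. Family shares moved by more than the spread between replicates in 28 of 60 settings with raw counts or, chosen after seeing the data, the longest transcript as length. The depth of CTC replicate 1 limits its low values.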
